A study of Mus musculus with 65 samples.

Results

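The genomic sites of the erythroid cofactor LDB1 were compared in one cell line before and after the LDB1 protein was degraded. They were mapped by ChIP-seq, in which DNA bound by a protein is recovered with an antibody, here to LDB1, and sequenced. The cells were the LDB1-AID subline of G1E-ER4, a mouse erythroblast line, either untreated or treated with auxin for 4 h. Both conditions carry the same LDB1-AID modification, an auxin-inducible degron through which auxin directs the tagged protein to degradation, so the untreated cells are the control. The G1E-ER4 line lacks endogenous GATA1 and carries GATA1 fused to the ligand-binding domain of the oestrogen receptor. The labels mention no hormone treatment and do not say whether the subline is a single clone. Each condition had 2 replicate libraries, which the authors had combined into 1 consensus list of peaks. Among the 65 samples of the series, 4 belong to these groups.

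Sites on chromosomes 1 to 19 and X were used. The untreated list held 10729 peaks there and the auxin list 1043. An untreated site was called kept when at least 1 bp of it overlapped an auxin peak, and lost otherwise. An auxin peak with no untreated peak under it was called auxin-only. These classes held 834 kept, 9895 lost and 207 auxin-only sites, or 10936 sites in all. The 9 deposited peak lists of the series held 143040 peaks on these chromosomes.

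LDB1 does not bind DNA itself. It is recruited through LMO2 to complexes of the DNA-binding factors GATA1 and TAL1 at erythroid enhancers, and it dimerises, which brings enhancers and promoters into contact, the beta-globin locus being the best known case. RAD21 and SMC3 are subunits of cohesin, the ring complex that extrudes chromatin loops. CTCF is the zinc-finger protein at which loop extrusion halts, and YY1 is a zinc-finger factor common at active promoters and enhancers.

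Each list gives a chromosome, a start and an end for every peak, with no score or read count. All peaks were 400 bp wide. There is therefore 1 value per condition, no spread between replicates and no p-value, and peak height and read depth are unknown. A site absent from a list was not called there, which does not show that LDB1 was absent. Shares are given with Wilson 95% intervals and differences between shares with Newcombe 95% intervals. Both cover counting error only, because neighbouring peaks are not independent samples. Coordinates are in mouse build mm9, named in the submitters' processing notes, and are counted from 1. No annotation of that build was used here, so sites were not assigned to genes, exons or introns.

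After auxin, most LDB1 sites were no longer called. Of 10729 untreated sites 834 were kept, which was 7.77% (7.28 to 8.3), and the median lost site lay 372 kb from the nearest remaining auxin peak. Among the 1043 auxin peaks, 836 lay on an untreated site and 207 did not, which was 19.8% (17.5 to 22.4). A pair of untreated sites on chromosome 4 (9674935 to 9675334 and 131632979 to 131633378) each carried 2 auxin peaks, which is why shared auxin peaks outnumber kept sites.

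In the SMC3-AID subline, in which auxin targets a cohesin subunit and the labels name no degron on LDB1, 6715 of 8585 untreated LDB1 sites (78.2%) were called again after 4 h of auxin. To put both treatments on one denominator, the 7192 sites called in the untreated lists of both sublines were followed. LDB1 degradation left 721 of them (10%, 9.35 to 10.7) and SMC3 degradation left 5992 (83.3%, 82.4 to 84.2). At sites with none of RAD21, YY1 and CTCF the shares were 4.05% (3.49 to 4.69) and 79.6% (78.3 to 80.8) of 4149 sites.

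The sites kept after LDB1 degradation were also those called more often after SMC3 degradation. They were called again in 697 of 721 cases (96.7%, 95.1 to 97.8). Sites lost after LDB1 degradation were called again in 5295 of 6471 cases (81.8%, 80.9 to 82.7). The difference was 14.8 percentage points (13 to 16.3).

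No chromosome stood apart in the share kept. The share kept ranged from 5.64% (3.18 to 9.82) of 195 sites on X to 9.72% (7.34 to 12.8) of 463 sites on chromosome 12, and the interval of every one of the 20 chromosomes included the overall 7.77%. The share of auxin-only peaks had a wider range, on fewer peaks per chromosome. They made up 25 of 92 auxin peaks on chromosome 1 (27.2%, 19.1 to 37) and 20 of 67 on chromosome 7 (29.9%, 20.2 to 41.7), but 6 of 70 on chromosome 2 (8.57%, 3.99 to 17.5) and 3 of 47 on chromosome 8 (6.38%, 2.19 to 17.2). Intervals left out the overall 19.8% on 3 chromosomes, 2, 7 and 8. With 14 to 92 auxin peaks per chromosome, the intervals of most chromosomes overlap.

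**Figure D1:**
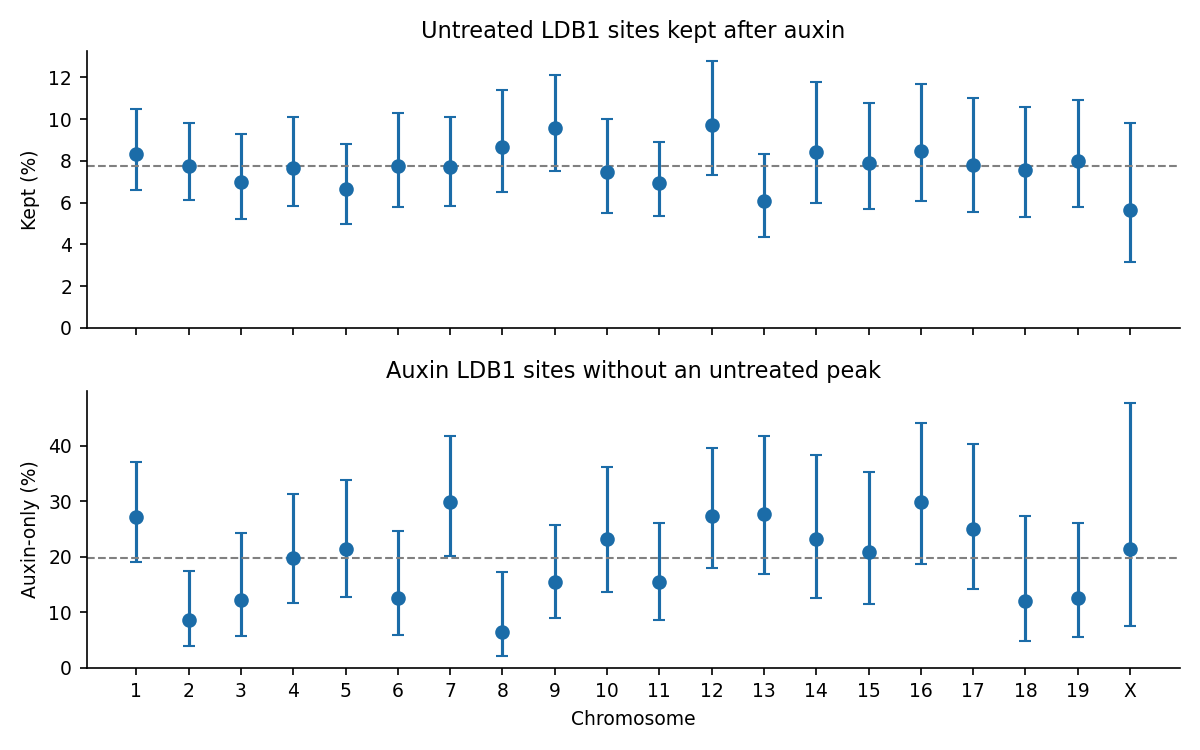
Share of untreated LDB1 sites kept after auxin (top, percent) and share of auxin LDB1 peaks with no untreated peak (bottom, percent) for each chromosome. Points are shares, bars are Wilson 95% intervals and dashed lines are the shares over all chromosomes, 7.77% and 19.8%. No chromosome's interval for the kept share leaves out the overall line, while the auxin-only share varies from 6.38% on chromosome 8 to 29.9% on chromosome 7.

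Kept sites carried cohesin and YY1 more often than lost sites. A RAD21 peak of untreated LDB1-AID cells overlapped 498 of 834 kept sites (59.7%, 56.3 to 63) and 2199 of 9895 lost sites (22.2%, 21.4 to 23.1), a difference of 37.5 points (34 to 40.9). A YY1 peak overlapped 388 kept sites (46.5%, 43.2 to 49.9) and 1802 lost sites (18.2%, 17.5 to 19), a difference of 28.3 points (24.9 to 31.8). CTCF differed little, at 82 kept sites (9.83%, 7.99 to 12) and 712 lost sites (7.2%, 6.7 to 7.72), or 2.64 points (0.723 to 4.9). These peaks were called before auxin was added, so they describe where LDB1 sites persisted and not what cohesin or YY1 did afterwards.

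Sites kept were made up of other combinations than sites lost. RAD21 together with YY1, without CTCF, was found at 229 kept sites, 27.5% of that class, and at 562 lost sites, 5.68% of theirs. Sites with none of the 3 proteins made up 24.3% of kept sites (203) and 64.6% of lost sites (6390). RAD21 alone was at 24.5% of kept and 11.8% of lost sites. YY1 alone was at 13.9% and 10.8%. RAD21 with CTCF and without YY1 was at 3.48% of kept and 3.37% of lost sites. Of the 362 sites with that combination 8.01% were kept (5.64 to 11.3). That was below the 14.9% (13.1 to 16.9) of 1369 sites with RAD21 alone. It was above the 3.08% (2.69 to 3.52) of 6593 sites with none of the 3 proteins. With CTCF alone 4.65% (2.55 to 8.35) of 215 sites were kept, an interval that overlaps that of RAD21 with CTCF.

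The RAD21 list of SMC3-AID cells is smaller and gave lower shares in the same direction. It overlapped 123 kept sites (14.7%, 12.5 to 17.3) and 381 lost sites (3.85%, 3.49 to 4.25). The auxin RAD21 list of SMC3-AID cells held 24 peaks on these chromosomes, and it overlapped 2 kept LDB1 sites, 0 lost sites and 1 auxin-only site.

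**Figure D2:**
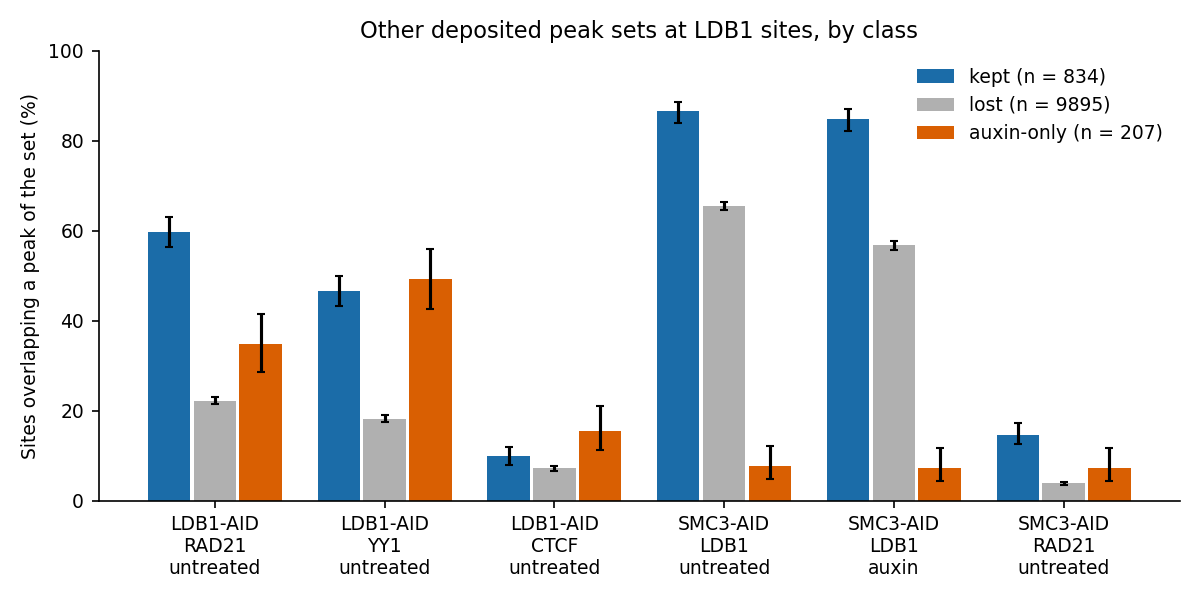
Percent of kept, lost and auxin-only LDB1 sites that overlap, by at least 1 bp, a peak of 6 other deposited lists; bars with Wilson 95% intervals. Kept sites exceed lost sites in every list. Auxin-only sites are at 49.3% for YY1, where kept sites are at 46.5%, and are at 7.73% for the untreated LDB1 list of SMC3-AID cells, where kept sites are at 86.5%.

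Sites called in the other subline before and after auxin were kept more often. Of 5992 untreated sites found in both LDB1 lists of SMC3-AID cells, 697 were kept (11.6%, 10.8 to 12.5). Of 3204 sites found in neither, 103 were kept (3.21%, 2.66 to 3.88). Sites found in the untreated SMC3-AID list alone were kept in 24 of 1200 cases (2%, 1.35 to 2.96).

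The RAD21 and YY1 differences held within these groups. Among sites found in both SMC3-AID lists, 24.2% (22.3 to 26.2) of 1825 with RAD21 were kept against 6.12% (5.43 to 6.89) of 4167 without. With YY1, 22.3% (20.2 to 24.5) of 1486 were kept, and 8.12% (7.36 to 8.96) of 4506 without. Where RAD21 and YY1 coincided, 239 of 720 were kept (33.2%, 29.9 to 36.7), and where both were missing, 163 of 3401 (4.79%, 4.12 to 5.56). Among sites found in neither SMC3-AID list, the corresponding shares were 11.4% (7.48 to 16.9) of 176 and 1.65% (1.2 to 2.25) of 2307. Peak height is not in the lists, and its part in these differences was not tested.

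Distance refined the overlap. The median kept site lay 181 bp from the nearest RAD21 midpoint, and the median lost site 5916 bp. For YY1 the medians were 504 bp and 11483 bp. For CTCF they were 6843 bp and 6291 bp, but a CTCF midpoint lay within 1 kb of 20.1% (17.6 to 23) of kept and 14.8% (14.2 to 15.6) of lost sites.

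The share kept fell with distance from RAD21 in steps. It was 19.4% (16.9 to 22.2) of 865 sites under 50 bp from a RAD21 midpoint, 20.7% (17.8 to 23.9) of 681 sites at 50 to 100 bp, and 14.8% (12 to 18.3) of 492 sites at 200 to 400 bp. Between 400 and 1000 bp, where the 400 bp peaks no longer touch, it was 7.44% (5.42 to 10.1) of 484 sites, close to the overall 7.77%. Between 1000 and 10000 bp it was 3.85% (3.27 to 4.52) of 3663 sites. At 50000 bp or more it was 6.26% (4.52 to 8.62) of 543 sites, above the 3.74% (3.15 to 4.44) of 3342 sites between 10000 and 50000 bp.

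For YY1 the share was 19.9% (16.7 to 23.6) of 502 sites under 50 bp and still 12.7% (10.2 to 15.7) of 567 sites between 400 and 1000 bp, beyond the reach of an overlap. It was 5.07% (4.28 to 6) of 2524 sites between 1000 and 10000 bp. Few sites lay on CTCF itself. The share kept was 15.2% (8.91 to 24.7) of 79 sites under 50 bp and 8.36% (5.98 to 11.6) of 383 sites at 200 to 400 bp, and these intervals overlap. It was 10.2% (8.37 to 12.5) of 840 sites between 400 and 1000 bp from CTCF and 6.72% (6.06 to 7.44) of 5078 sites between 1000 and 10000 bp, with intervals that do not overlap.

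**Figure D3:**
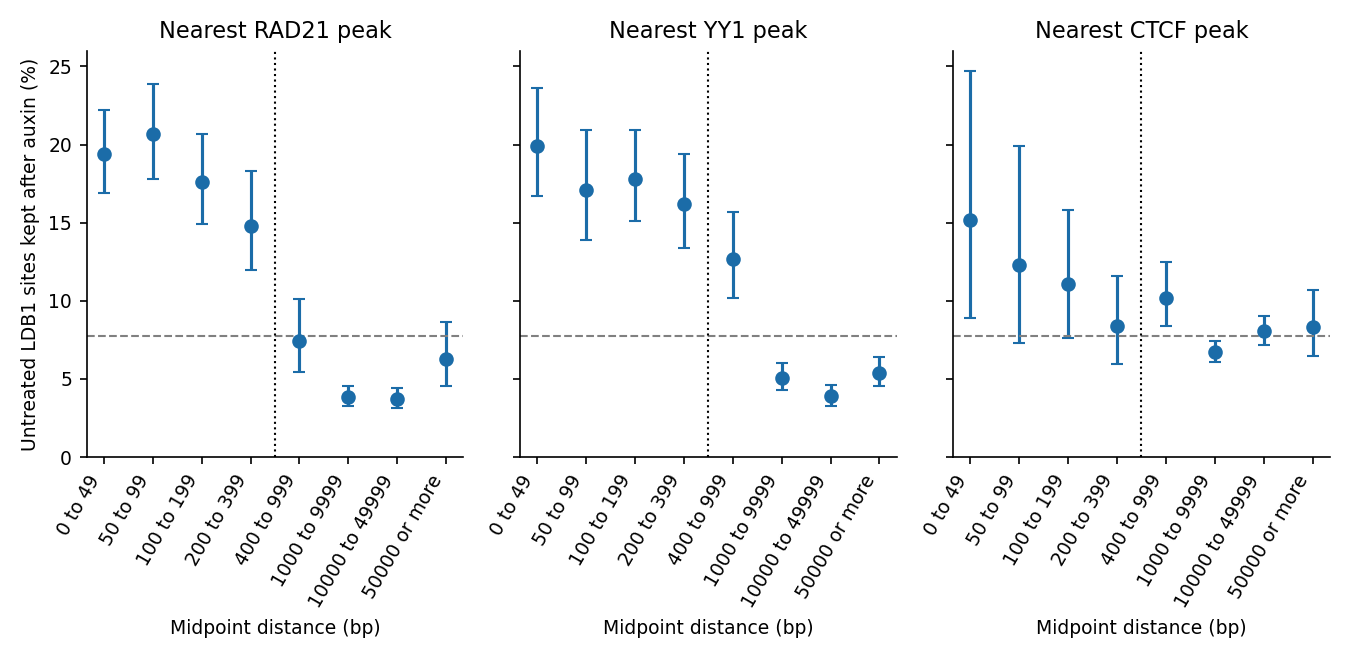
Percent of untreated LDB1 sites kept after auxin (y axis) by distance in bp from the LDB1 midpoint to the nearest RAD21, YY1 or CTCF midpoint (x axis, unequal bins). Points are shares with Wilson 95% intervals, the dashed line is the overall 7.77%, and peaks overlap left of the dotted line. The share is near 20% on top of RAD21 and YY1 and under 6% at 1000 to 10000 bp.

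Within overlapping pairs, the partner sat slightly nearer to kept than to lost sites. The RAD21 midpoint was a median of 73 bp from the LDB1 midpoint at kept sites (quartiles 34 and 138) and 84 bp at lost sites (38 and 166). RAD21 lay within 100 bp at 62.4% (58.1 to 66.6) of kept and 57% (54.9 to 59.1) of lost sites that carried it. These separate intervals overlap, which does not settle whether the shares differ, and no interval of the difference was computed. For YY1 the medians were 114 bp and 120 bp.

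Kept peaks did not stay in place as exactly as LDB1 peaks do between other lists. Because all peaks have one width, the midpoint stands for the peak's position, and whether it is the summit is not given in the sources used here. From untreated to auxin, kept sites shifted by a median of 38 bp (quartiles 16 and 84), and 55 of 834 (6.59%, 5.1 to 8.49) by more than 200 bp. As yardsticks, LDB1 peaks shared by the untreated lists of the 2 sublines differed by a median of 25 bp (12 and 47). Those shared by untreated and auxin-treated SMC3-AID cells differed by 19 bp (9 and 34). The overlap rule limits every such shift to less than 400 bp. Shifts over 200 bp made up 2.56% (2.22 to 2.95) of 7192 pairs and 0.923% (0.721 to 1.18) of 6715 pairs in these yardsticks.

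Before auxin, kept sites differed little from lost sites in this respect. Against the untreated SMC3-AID list kept sites differed by a median of 26 bp and lost sites by 25 bp, although fewer kept than lost sites agreed to within 100 bp (90.2%, 87.8 to 92.1, against 93.9%, 93.3 to 94.4). The shift after auxin had no common direction. The auxin midpoint was at a higher coordinate at 397 sites, at a lower one at 430 and at the same base at 7. Midpoints came nearer to a partner about as often as they went farther from it. Of kept sites with RAD21, the auxin midpoint was nearer to RAD21 than the untreated midpoint had been at 240 and farther at 255, so 48.5% of those that moved came nearer (44.1 to 52.9). With YY1, 196 came nearer and 186 moved away (51.3%, 46.3 to 56.3). A shift can pass a close partner and then count as farther, so shifts without direction need not split equally. These shares therefore cannot decide whether kept sites moved toward a partner. The median shift was 41 bp at kept sites with RAD21 and 35 bp at those without, and 39 bp and 37 bp for YY1.

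The largest shifts were 390 bp toward higher coordinates, at chromosome 1 (59886687 to 59887086) and chromosome 9 (61513515 to 61513914), so these sites met the overlap rule by 10 bp. Shifts of 387, 381 and 378 bp followed on chromosomes 19 (11687146 to 11687545), 4 (43707110 to 43707509) and 16 (95997313 to 95997712). All 5 had an untreated LDB1 peak in SMC3-AID cells, and 4 of the 5 had YY1. Pairs at this end of the rule are close to the lost and auxin-only classes. A further 9 auxin-only peaks had an untreated midpoint within 0.5 kb.

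**Figure D4:**
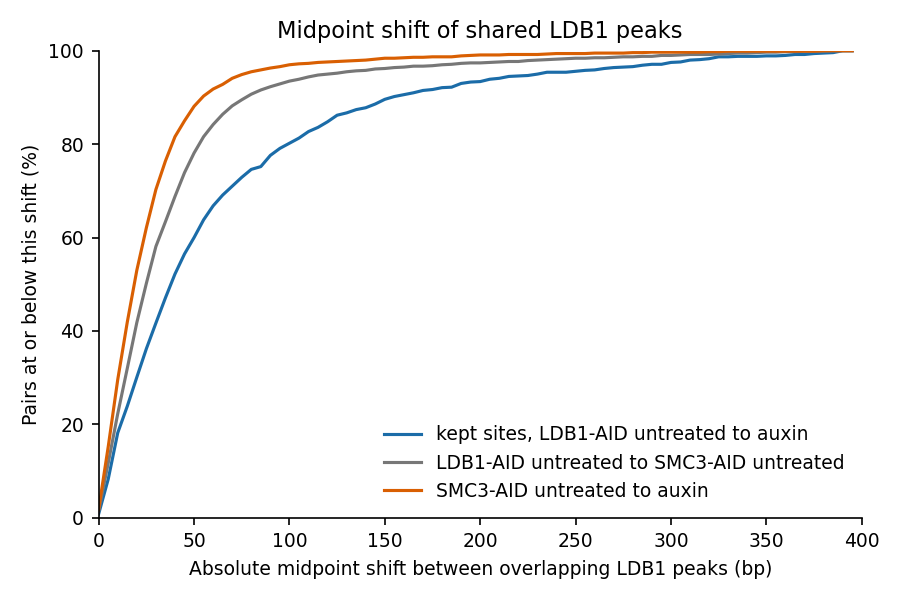
Cumulative percent of overlapping LDB1 peak pairs (y axis) by absolute midpoint shift in bp (x axis). The curve of kept sites from untreated to auxin-treated LDB1-AID cells (834 pairs, median 38 bp) lies below those of the untreated lists of both sublines (7192 pairs, 25 bp) and of SMC3-AID cells before and after auxin (6715 pairs, 19 bp).

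Spacing separated kept from lost sites much less than RAD21 or YY1 did. The nearest other untreated LDB1 site was a median of 12388 bp from kept sites (quartiles 4160 and 39497) and 15212 bp from lost sites (4526 and 46748). A neighbour within 25 kb was present at 65.2% (61.9 to 68.4) of kept and 62.1% (61.1 to 63) of lost sites. The difference was 3.16 points with an interval that included 0 (-0.274 to 6.45). Within 10 kb it was 5.5 points (2 to 9.03).

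Very close pairs behaved otherwise. Among 268 sites whose neighbour lay under 1 kb away, 6 were kept (2.24%, 1.03 to 4.8), against 94 of 987 (9.52%, 7.85 to 11.5) with a neighbour at 1 to 2 kb. From 2 kb outward the share ranged from 6.27% to 9.29%. Of the 6 kept sites with a neighbour under 1 kb away, 0 had a kept nearest neighbour (0%, 0 to 39). That interval includes the 7.77% kept among all untreated sites, so 6 sites are too few to describe close pairs in this respect.

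To describe groups of sites, neighbours up to 25 kb apart were joined into chains. Single sites were kept in 290 of 4043 cases (7.17%, 6.42 to 8.01), and sites in chains of 5 or more in 141 of 1422 (9.92%, 8.47 to 11.6), a difference of 2.74 points (1.07 to 4.57). Larger chains also carried more cohesin. RAD21 was at 18% (16.8 to 19.2) of single sites and 39.9% (37.4 to 42.5) of sites in chains of 5 or more, and YY1 at 17% and 24.9%. In a split chosen after the data were seen, the difference between large chains and single sites was -0.265 points (-4.58 to 4.15) among sites with RAD21. It was -0.89 points (-2.17 to 0.705) among sites without. Sites with RAD21 were kept in 19.8% (17.1 to 22.9) of 727 cases when single and in 19.5% (16.5 to 23) of 568 in large chains.

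**Figure D5:**
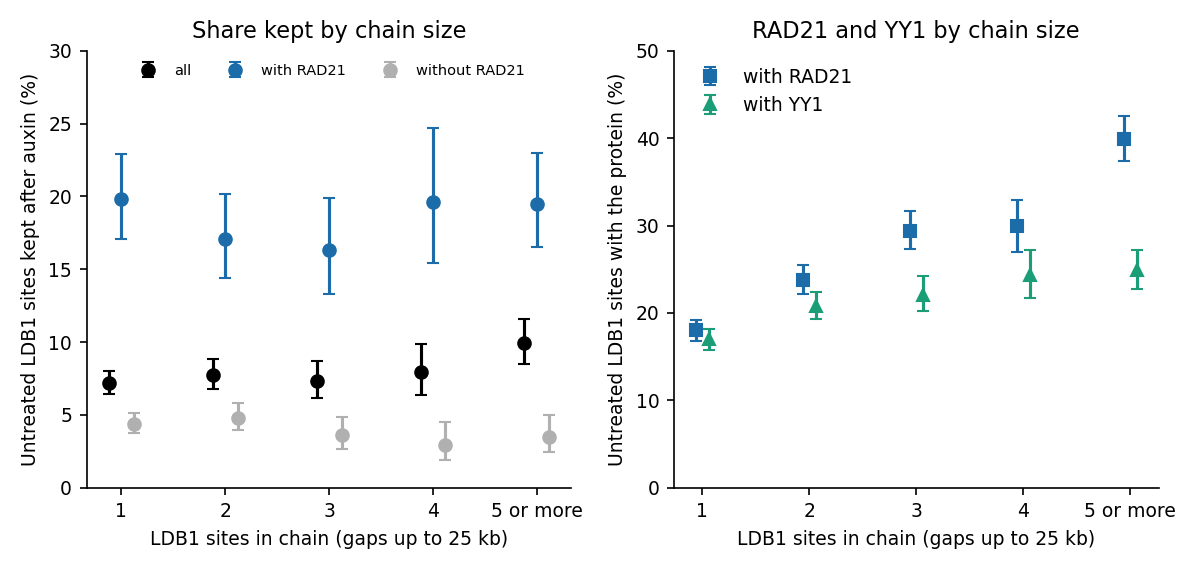
Left, percent of untreated LDB1 sites kept after auxin (y axis) by the number of sites in the chain (x axis), for all sites and for those with and without RAD21. Right, percent of sites with RAD21 or YY1. Points are shares with Wilson 95% intervals. With RAD21 the kept share stays between 16.3% and 19.8% at every chain size, while the share of sites with RAD21 rises from 18% to 39.9%.

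Kept sites were scattered over chains. Of 2358 chains with 2 or more sites, 1875 kept none, 429 kept 1, 47 kept 2 and 7 kept 3, the most in any chain. All sites were kept in 9 chains, none of which had 3 or more sites. Among 230 chains of 5 or more, 123 kept none. The nearest neighbour of a site was kept at 55 of 544 kept sites (10.1%, 7.85 to 12.9) and at 502 of 6142 lost sites (8.17%, 7.51 to 8.88) with a neighbour within 25 kb. The difference of 1.94 points had an interval that included 0 (-0.432 to 4.83). In chains of 3 or more, sites at the ends were kept in 7.59% (6.51 to 8.83) of 2016 cases and sites inside in 9.24% (8.04 to 10.6) of 1970. The median kept site lay 432 kb from the next kept site.

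Of the 7 chains that kept 3 sites, the 5 with the largest kept share are given one by one. The chain on chromosome 1 (69540049 to 69563116, 23.1 kb) had 5 sites. Its kept sites began at 69542485, 69554175 and 69560273, all with RAD21, and their midpoints moved by 96, -72 and 14 bp, where a positive value is toward higher coordinates. The lost site at 69562717 had RAD21, YY1 and LDB1 peaks in both SMC3-AID lists, like 2 of the kept sites beside it. The other lost site, at 69540049, was on no RAD21, YY1, CTCF or SMC3-AID LDB1 peak.

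The chain on chromosome 9 (110561434 to 110572518, 11.1 kb) was the most compact of the 5. It kept the 3 sites that began at 110568419, 110569987 and 110571061, which were also its only sites in the untreated SMC3-AID list. It carried no YY1, and RAD21 at 2 of the 3 kept sites. Its lost sites at the ends, 110561434 and 110572119, were on none of the RAD21, YY1, CTCF and SMC3-AID LDB1 lists.

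On chromosome 12 (83326834 to 83349072, 22.2 kb) the kept sites began at 83326834, 83346157 and 83348673 and all had RAD21. The latter pair were in neither LDB1 list of SMC3-AID cells, so this chain was kept largely at sites that the other subline lacked. The chain on chromosome 1 at 51587383 to 51651039 (63.7 kb) kept 3 of 6 sites, beginning at 51610380, 51629507 and 51650640, each with RAD21, with shifts of 255, -24 and -9 bp. The chain on chromosome 15 (42263521 to 42315122, 51.6 kb) kept 3 of 6, beginning at 42269745, 42311015 and 42314723. RAD21 was at all 3 and at 2 of its 3 lost sites. Across the 5 chains 14 of 15 kept sites carried RAD21, a description of chains chosen by their kept sites.

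The chains with most sites and none kept did not lack RAD21. The largest, on chromosome 11 (11700831 to 11795857, 95 kb), had 13 sites, with RAD21 at 4, YY1 at 4 and CTCF at 2. It also held 2 auxin-only peaks, which flanked its lost site at 11736052 on either side within 1 kb. No other lost site had auxin peaks on both sides at that distance. The chain on chromosome 2 (6185049 to 6317925, 133 kb) had 9 sites, 6 with RAD21 and 2 with YY1. The chain on chromosome 8 (10635959 to 10720836, 84.9 kb) also had 9, again 6 with RAD21 and 2 with YY1, and 5 of its sites were called in SMC3-AID cells after auxin.

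Auxin-only sites were rarely LDB1 sites in the other subline. The class rule bears on this, because auxin-only sites lie on no untreated LDB1 peak of LDB1-AID cells, while 7219 of the 8585 untreated LDB1 peaks of SMC3-AID cells lie on one. The values that follow are therefore a description. An untreated LDB1 peak of SMC3-AID cells overlapped 16 of 207 (7.73%, 4.81 to 12.2), against 86.5% (84 to 88.6) of kept sites and 65.4% (64.5 to 66.3) of lost sites. The difference from kept sites was -78.7 points (-82.3 to -73.6). Either LDB1 list of SMC3-AID cells overlapped 17, and 14 of these lay under 1 kb from an untreated LDB1 site of LDB1-AID cells. Of the 185 auxin-only sites at 1 kb or more, 3 had an LDB1 peak in SMC3-AID cells (1.62%, 0.553 to 4.66).

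YY1 was at 102 of 207 auxin-only sites (49.3%, 42.5 to 56), 31.1 points above lost sites (24.3 to 37.9). The difference of 2.75 points from kept sites had an interval that included 0 (-4.79 to 10.3) and it changed sign under a stricter overlap rule. RAD21 was at 72 (34.8%, 28.6 to 41.5), which was 24.9 points below kept sites (-31.9 to -17.4) and 12.6 points above lost sites (6.35 to 19.3). CTCF was at 32 (15.5%, 11.2 to 21), which was 5.63 points above kept sites (0.801 to 11.5). YY1 without RAD21 or CTCF was the most frequent combination, at 57 sites (27.5%, 21.9 to 34), after the 67 sites (32.4%, 26.4 to 39) with none of the 3. Where RAD21 overlapped an auxin-only site its midpoint was a median of 128 bp away, against 73 bp at kept sites, and it lay within 100 bp at 27 of 72 (37.5%, 27.2 to 49).

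None of the other 7 lists had a peak at 61 auxin-only sites (29.5%, 23.7 to 36), against 3.96% (2.83 to 5.5) of kept and 22.1% (21.3 to 22.9) of lost sites. The class rule bears on these shares too, because the 7 include the LDB1 lists of SMC3-AID cells. For RAD21, YY1 and CTCF of LDB1-AID cells the order against lost sites was the other way. None of these 3 was at 32.4% of auxin-only, 24.3% of kept and 64.6% of lost sites. A single other list overlapped 80 auxin-only sites, and 5 lists, the most for any, overlapped 2. The site on chromosome 12 (80870727 to 80871126) carried RAD21 of both sublines, YY1 and both SMC3-AID LDB1 peaks, and its midpoint was 412 bp from an untreated site. The site on chromosome 13 (45607439 to 45607838) carried RAD21, YY1, CTCF and both SMC3-AID LDB1 peaks at 496 bp. In both, then, the auxin peak lay just beyond the reach of the overlap rule. The next 3 by this count carried RAD21 of both sublines, YY1 and CTCF and no LDB1 of SMC3-AID cells. They lay on chromosomes 1 (108067881 to 108068280 and 145853679 to 145854078) and 6 (82946795 to 82947194), and 487, 16.3 and 17.7 kb from the nearest untreated site.

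Auxin-only sites lay at all distances from untreated sites, with a median of 24.4 kb (quartiles 7.95 and 79.6). Within 25 kb of an untreated site were 106 of them (51.2%, 44.4 to 57.9). At 100 kb or more, 22 of 46 (47.8%, 34.1 to 61.9) were on no other list, against 24 of 84 (28.6%, 20 to 39) at 1 to 25 kb. RAD21 was at 9 of 46 (19.6%, 10.7 to 33.2) against 36 of 84 (42.9%, 32.8 to 53.5). In both comparisons the separate intervals overlap, which does not show that the shares are alike. Intervals of these differences were not computed. YY1 was at 45.7% (32.2 to 59.8) and 46.4% (36.2 to 57). Between these groups, at 25 to 100 kb, 15 of 55 (27.3%, 17.3 to 40.2) were on no other list. There RAD21 was at 30.9% (20.3 to 44) and YY1 at 52.7% (39.8 to 65.3). The farthest was on chromosome 1 (104524555 to 104524954), 2448 kb from any untreated LDB1 site, with a YY1 peak. The next lay on chromosomes 1 (30581807 to 30582206, 2221 kb, and 105588730 to 105589129, 1971 kb), X (124897951 to 124898350, 1842 kb) and 16 (42875135 to 42875534, 1284 kb). Of these the site on X had RAD21 and the others were on no list.

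Another auxin-only site was within 25 kb at 15 of 207 auxin-only sites (7.25%, 4.44 to 11.6), in 6 pairs and 1 group of 3 on chromosome 13 (23635209 to 23663330, 28.1 kb). For kept sites, another kept site was within 25 kb at 101 of 834 (12.1%, 10.1 to 14.5). The kept class is larger, and the share that density alone would give was not computed for either class. A pair on chromosome 4 (146023105 to 146024323) had midpoints 819 bp apart and no peak of any other list. Below 3.1 Mb on chromosome 9 lay 2 untreated sites, both kept, and 1 auxin-only site.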

How the data were processed

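The series is ChIP-seq of G1E-ER4 sublines. The 2 LDB1 lists of LDB1-AID cells and 7 other lists were used, each made by the authors from all replicates of its group (2 in LDB1-AID, 3 in SMC3-AID cells), per the labels. The deposited values are peak starts and ends in bp, with no other measure. The submitters' processing notes name Bowtie2, MACS2 2.2.9.1, deepTools 3.5.1 and mm9, without roles. The calling threshold, the consensus rule and the read depth are not given in the sources used here, so precision below the level of a site is unknown and a list's length may follow depth or calling as well as occupancy.

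Overlap needed 1 bp. Peaks on other contigs were left out. Distances are between midpoints, and chains join midpoints up to 25 kb apart. Computation used Python 3.11.15, numpy 2.4.6, pandas 2.3.3 and scipy 1.17.1. Overlap counts equalled those of bedtools 2.31.1 for all 8 lists, and the functions were tested on simulated data. Alternatives were other overlap rules, chromosome sets and chain distances.

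Regions named are the 5 chains with most kept sites, the 3 largest that kept none, the 5 largest shifts, and the 5 auxin-only sites on most lists and the 5 farthest from untreated sites. Other positions were chosen after their values were seen. Classes and comparisons were chosen with earlier results of these data known. Planned promoter and motif results were not run, since no genome of build mm9 was used here.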

Additional observations from a re-analysis of the deposited data

Results flagged for a closer look

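Peaks outside chromosomes 1 to 19 and X entered no comparison. The untreated list held 12 such LDB1 peaks and the auxin list 4. The untreated peaks lay on unplaced parts of chromosomes 9 (7 peaks), 1 (2) and 4 (1) and on mitochondrial DNA (2). Of the 4 auxin peaks, 2 were mitochondrial and 3 overlapped an untreated peak.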

How the results depend on the processing

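Of 88 alternative values for 15 results, 73 stayed within the counting interval of the reported value or, for counts, within 1.5 times of it, 13 moved and 2 reversed. When both peaks had to be covered to 50% or more, 7.26% of untreated sites were kept, 25.3% of auxin sites were auxin-only, kept minus lost was 33.4 points for RAD21 and 23.1 for YY1, and auxin-only minus kept was -66.9 points for the untreated LDB1 list of SMC3-AID cells and -4.26 for YY1, where the interval still included 0 (-10.6 to 2.47). With midpoints within 500 bp, auxin-only minus kept was -82.5 points for that LDB1 list. With a gap of up to 1 kb, 8.33% were kept, and the differences were 32 points for YY1, 5.41 for CTCF and -85.8 for the SMC3-AID LDB1 list. Of the alternatives, 3 kinds were chosen after the data were seen: the RAD21 list of SMC3-AID cells, the sites found in both SMC3-AID LDB1 lists, and the sites with or without RAD21. With the RAD21 list of SMC3-AID cells, kept minus lost was 10.9 points and auxin-only minus kept was -7.5. That list is shorter, and the cause of the smaller difference was not tested. Large chains minus single sites was 5.34 points among sites found in both SMC3-AID LDB1 lists. It reversed to -0.265 among sites with RAD21 and -0.89 among sites without, both with intervals that include 0. For the share of sites with a neighbour, the interval of kept minus lost included 0 at 25 kb and left it out at 10 kb (5.5 points), at 100 kb (2.49), with a 1 kb gap (5.23) and after merging sites within 1 kb (3.88). The median shift was 35 bp under the 50% rule and 38 bp under the other rules run. No paired analysis was possible because the replicates of each group had been combined into one list before deposit, and leaving out a replicate could not be run for the same reason. Peak height and read depth are unknown and limit every comparison.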
